A study of Mus musculus with 15 samples.

Results

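The mRNAs of 10 tubulin isotypes were followed in hippocampal neural precursor cells that carried an inducible Atf4 transgene, an inducible Atf3 transgene or neither. The isotypes were the α-tubulin genes Tuba1a, Tuba1b and Tuba1c and the β-tubulin genes Tubb2a, Tubb2b, Tubb3, Tubb4a, Tubb4b, Tubb5 and Tubb6. They were picked by gene symbol, with no threshold on a measured value but with earlier results of these data known, and all 10 were found among the 55416 genes of the count table. All 10 also passed the filter on low counts, which left 18244 genes for testing.

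The cells were taken from the hippocampus of adult female mice aged 6 weeks and were grown as an adherent culture. Each line had been made with the piggyBac transposon and carried a TRE3G promoter cassette, the SV40-TetON-3G transactivator and puromycin resistance. The Atf4 line held Atf4 behind TRE3G, the Atf3 line held Atf3 there, and the control line had the same cassette without either gene. EGF and FGF were withdrawn to start differentiation, 100 ng/ml doxycycline was given to every line at that moment, and RNA was collected 10 h later. There were 5 libraries of the Atf4 line, 5 of the Atf3 line and 5 of the control line. Each construct was represented by 1 stable line, so an effect of the transgene and a difference between lines cannot be told apart. The labels do not say whether the 5 libraries of a line came from separate cultures, so p-values here reflect how far these samples spread, and that spread may be technical only.

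α- and β-tubulin form the dimer from which microtubules are built, and mammals encode several isotypes of each. The isotypes differ most in their acidic C-terminal tails, which project from the microtubule and receive modifications such as polyglutamylation and tyrosine removal. In the brain Tuba1a, Tubb2a, Tubb2b, Tubb3 and Tubb4a are known as neuron-enriched isotypes, Tubb3 being the standard immunostaining marker of young neurons, while Tubb4a is also made by oligodendrocytes. Tuba1b, Tuba1c, Tubb4b, Tubb5 and Tubb6 are found in many tissues. Cells also control tubulin mRNA by feedback: when free dimer is abundant, the factor TTC5 recognises the start of the nascent tubulin chain on the ribosome and the mRNA is degraded.

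The starts of the coding sequences are shown because that feedback reads the residues encoded by the first 4 codons, which are in capitals. Sequences are from GENCODE transcripts on GRCm38, read 5′ to 3′, and the first 30 coding bases are given for 9 members. The α-tubulin starts cross the junction of exons 1 and 2, and the β-tubulin starts lie in exon 1.
Tuba1a: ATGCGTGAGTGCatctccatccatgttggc
Tuba1b: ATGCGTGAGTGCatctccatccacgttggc
Tuba1c: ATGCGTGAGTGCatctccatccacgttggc
Tubb2a: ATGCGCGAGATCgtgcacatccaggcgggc
Tubb2b: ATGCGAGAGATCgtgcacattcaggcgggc
Tubb3: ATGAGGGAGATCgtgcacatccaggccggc
Tubb4a: ATGCGGGAAATCgtgcacctgcaagccggt
Tubb4b: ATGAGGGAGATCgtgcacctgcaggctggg
Tubb5: ATGAGGGAAATCgtgcacatccaggccgga

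The 3 α-tubulin genes shared the same first 12 bases. Among the 6 β-tubulin genes printed, Tubb3 and Tubb4b shared theirs and the other 4 each had a spelling of their own.

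The ends of the coding sequences encode the tails in which the isotypes differ most. The last 60 coding bases are given for the near-identical pair Tubb2a and Tubb2b, for Tubb3 and for Tubb5, with the stop codon in capitals.
Tubb2a: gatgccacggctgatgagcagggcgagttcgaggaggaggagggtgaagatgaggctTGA
Tubb2b: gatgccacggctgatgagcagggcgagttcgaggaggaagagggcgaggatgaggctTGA
Tubb3: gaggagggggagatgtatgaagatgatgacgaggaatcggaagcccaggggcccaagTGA
Tubb5: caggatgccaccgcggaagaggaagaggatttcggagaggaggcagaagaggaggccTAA

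Tubb3 and Tubb6 differed most from the other β-tubulin genes at this end. For Tubb3 the last 60 coding bases were 42.7 to 53.7% identical to those of the other β-tubulin genes, against 81.2 to 85.9% over the whole coding sequence. For Tubb6 the last 60 bases were 45.0 to 60.3% identical to the others. The end of Tubb3 printed above lies at chr8:123421623-123421682 on the plus strand, in exon 4 of 4. Tuba1a and Tuba1b were 98.3% identical over the coding sequence, and Tubb2a and Tubb2b were 96.5% identical over the coding sequence.

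This likeness limits what the counts can separate. Of all distinct windows of 150 bases, the read length, in a gene's annotated transcripts, 54.7% of those of Tuba1a, 51.5% of Tuba1b, 40.1% of Tuba1c, 27.9% of Tubb2a, 18.8% of Tubb2b and 11.9% of Tubb4b were also found letter for letter in another gene. For Tubb3, Tubb4a, Tubb5 and Tubb6 no such window was found. How the authors treated reads that match several genes is not given in the sources used here, so the levels of Tuba1a, Tuba1b, Tuba1c, Tubb2a, Tubb2b and Tubb4b are uncertain to the extent that such reads were split or dropped.

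The genes lie in a few places of GRCm38 (mm10), and all 10 are annotated as protein-coding. Tuba1b (ENSMUSG00000023004, chr15:98931425-98934565, minus strand), Tuba1a (ENSMUSG00000072235, chr15:98949837-98953703, minus strand) and Tuba1c (ENSMUSG00000043091, chr15:99029891-99038110, plus strand) are neighbours. So are Tubb2a (ENSMUSG00000058672, chr13:34074274-34078007) and Tubb2b (ENSMUSG00000045136, chr13:34126748-34130466), both on the minus strand. Tubb3 (ENSMUSG00000062380) is at chr8:123411424-123422015 on the plus strand. Tubb5 (ENSMUSG00000001525, chr17:35833921-35838306) and Tubb4a (ENSMUSG00000062591, chr17:57080066-57087782) are on the minus strand of chromosome 17. Tubb4b (ENSMUSG00000036752) is at chr2:25222160-25224702 on the minus strand, and Tubb6 (ENSMUSG00000001473) is on chromosome 18. Strand was not marked by the library kit, and 5.8% of the exon bases of Tubb4b overlap Fam166a on the other strand. An annotated readthrough gene, Gm49450, covers 26.2% of the exon bases of Tuba1a and 22.7% of those of Tuba1b, and held 27 to 79 counts per library.

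Libraries held 53.7 to 69.6 M counts. As a check of the labels, Atf3 mRNA was at 1.40 ± 0.306, 1941 ± 119.5 and 5.02 ± 4.10 CPM in the Atf4, Atf3 and control lines (SD, n = 5 each; CPM is the read count normalised to library size after TMM scaling). Atf4 mRNA was at 153 ± 21.7, 250.3 ± 16.5 and 83.2 ± 6.75 CPM in the Atf4, Atf3 and control lines, so it was above control in the Atf4 line and higher still in the Atf3 line. Counts per gene cannot tell transcripts of the transgene from those of the endogenous gene. The cells carried precursor markers, with Sox2 at 233 ± 11.4, 224 ± 13.3 and 228 ± 7.50 CPM in the Atf4, Atf3 and control lines, while the neuronal markers Rbfox3 and Stmn2 lay below 1 CPM in every library. Another neuron marker, Map2, was abundant, as given below.

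Levels of different genes are set against each other here only as CPM per kb, that is CPM divided by the annotated exon length. By this measure the most abundant isotype in every line was Tuba1a, at 478 ± 42.0, 516 ± 34.7 and 547 ± 22.2 CPM per kb in the Atf4, Atf3 and control lines. In the Atf4 line the order below it was Tubb5, Tuba1b, Tubb2a, Tubb2b, Tubb4b, Tuba1c, Tubb3, Tubb4a and Tubb6, and the library ranges of Tuba1a and Tubb5 overlapped, as did those of Tubb4b and Tuba1c. The Atf3 line had the same order, and of its neighbours only Tuba1b and Tubb2a overlapped. In the control line the order was Tuba1a, Tubb5, Tubb2b, Tubb2a, Tuba1b, Tubb4b, Tuba1c, Tubb3, Tubb4a and Tubb6, and the ranges of Tubb5, Tubb2b and Tubb2a overlapped from neighbour to neighbour. By its mean Tuba1b thus ranked above Tubb2a and Tubb2b in both transgenic lines and below them in the control line.

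**Figure D1:**
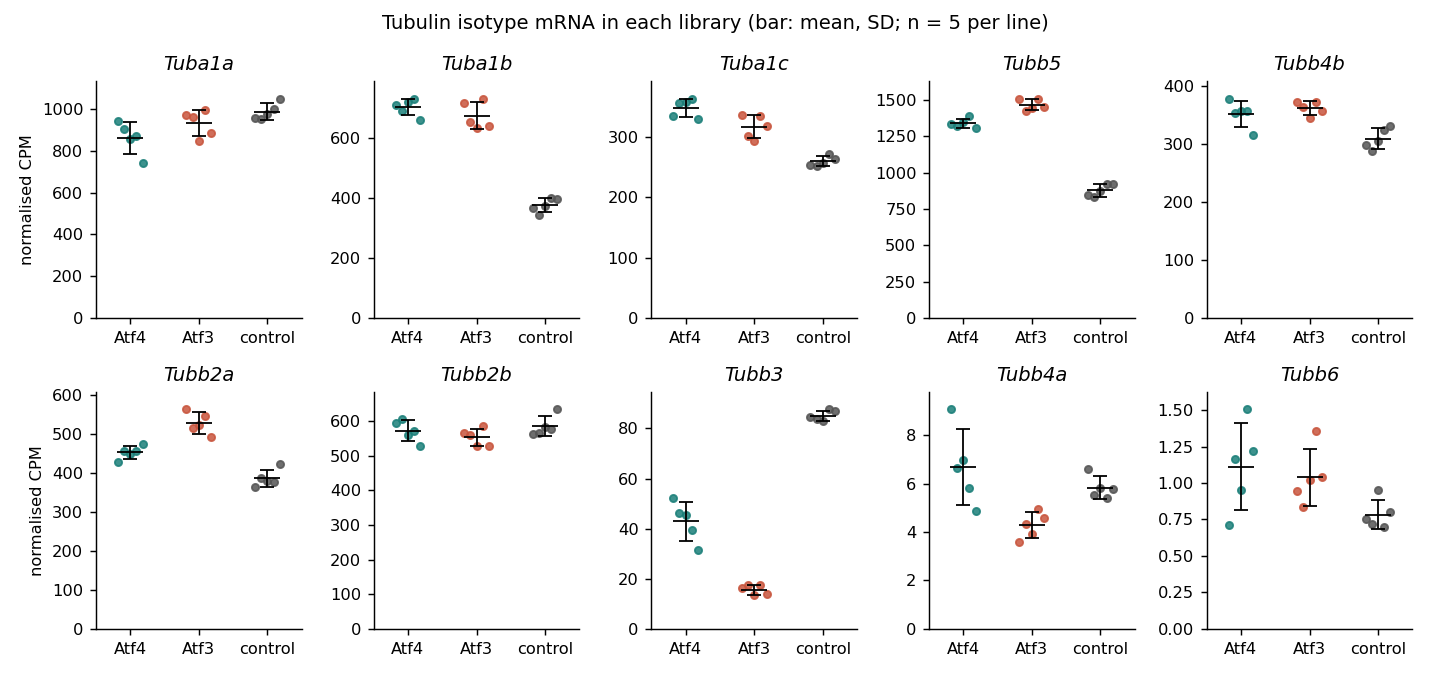
Normalised CPM of each isotype (y axis, linear and starting at 0) in the 5 libraries of the Atf4, Atf3 and control lines (x axis); each point is a library and the black bars are the mean and SD. Tubb3 separates all 3 lines, at 31.7 to 52.2, 13.4 to 17.5 and 82.9 to 87.6 CPM in the Atf4, Atf3 and control lines, while Tuba1b and Tubb5 lie higher in every Atf4 and Atf3 library than in any control library.

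Of the 10 isotypes, 6 rose and 2 fell in the Atf4 line against the control line, and 5 rose and 2 fell in the Atf3 line against the control line (edgeR quasi-likelihood test, adjusted p under 0.05 over all genes tested). These counts stand beside a very broad response. Of all genes tested 61.6% were called in the Atf4 line against control, 31.9% higher and 29.7% lower, and 73.2% in the Atf3 line against control, 36.8% higher and 36.3% lower. In the direct comparison of the Atf4 with the Atf3 line 43.6% were called, 19.7% higher and 23.9% lower, and of the isotypes 3 were higher and 2 lower. Scaling by plain library totals shifted this balance: of all calls 38.4% in place of 50.3% were higher in the Atf3 line against control, and 72.3% in place of 45.2% in the Atf4 against the Atf3 line. That some isotypes differed is therefore near what any gene did, and the values below describe which isotypes moved, in which direction and by how much.

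Among the neuron-enriched isotypes, Tubb3 differed most. It was at 52.2, 46.2, 45.3, 39.3 and 31.7 CPM in the libraries of the Atf4 line, at 16.2, 17.5, 13.4, 17.4 and 13.8 CPM in those of the Atf3 line and at 84.4, 83.6, 82.9, 87.6 and 86.8 CPM in those of the control line. No 2 lines overlapped: every Atf3 library was lowest, every control library highest, and the Atf4 libraries lay between and were spread widest. The Atf4 values fell in order from replicate 1 to replicate 5. Tubb4a and Tuba1a were also highest in replicate 1 and lowest in replicate 5 of that line. Tubb2a was lowest in replicate 1 and highest in replicate 5, and Tubb2b was highest in replicate 2 and lowest in replicate 5. The cause of this order was not tested. Against control, Tubb3 fell 1.98-fold with the Atf4 transgene (log2 fold change -0.99 ± 0.10 SE, edgeR adjusted p = 7.9e-08) and 5.44-fold with the Atf3 transgene (-2.44 ± 0.11 SE, edgeR adjusted p = 4.7e-13). Directly compared, its level was 2.75-fold higher in Atf4 than in Atf3 libraries (1.46 ± 0.10 SE, edgeR adjusted p = 2.2e-08). Among all 18244 genes tested, 906 had a lower log2 fold change than Tubb3 with the Atf4 transgene and 227 with the Atf3 transgene. A called change of at least 1 on the log2 scale was found for 9.03% and 17.5% of genes in these comparisons.

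In these bulk libraries fewer cells of a type and less RNA per cell cannot be told apart, and several lists of markers of other cell types also differed between the lines. For the calls below, the shares over all genes tested were 31.9% higher and 29.7% lower in the Atf4 line against control. In the Atf3 line against control they were 36.8% higher and 36.3% lower. Of 9 oligodendrocyte lineage markers, 8 could be tested, and 7 fell in the Atf4 line and all 8 in the Atf3 line against control. Summed over the 9 they gave 3596 to 4311 CPM in Atf4 libraries, 3036 to 3877 CPM in Atf3 libraries and 4388 to 4921 CPM in control libraries. Cnp, an enzyme of oligodendrocyte membranes, was at 188 ± 53.2, 122 ± 19.2 and 502 ± 26.0 CPM in the Atf4, Atf3 and control lines, the same order as Tubb3, while Sox10, Mbp and Mog of the same list were below 1 CPM in every library. Of 8 neuron markers 7 were tested. In the Atf4 line 3 were higher and 2 lower, and in the Atf3 line 2 were higher and 3 lower. The neuron markers summed to 1320.2 to 1489 CPM in Atf4 libraries, 1324 to 1556 CPM in Atf3 libraries and 1561 to 1745 CPM in control libraries, nearly all of it Map2, a dendritic microtubule protein at 1395 ± 75.7, 1444 ± 104 and 1679 ± 75.7 CPM. Of 6 astrocyte markers 1 rose and 5 fell in the Atf4 line and 1 rose and 3 fell in the Atf3 line, and they summed to 508 to 617, 579 to 626 and 669 to 772 CPM in Atf4, Atf3 and control libraries, with Aqp4 below 1 CPM in each. The 4 endothelial markers summed to 15.1 to 19.0, 8.36 to 11.9 and 42.6 to 47.2 CPM, and Cldn5, Pecam1 and Cdh5 were below 1 CPM throughout. Other lists went the opposite way or were mixed. The 4 ependymal markers summed to 29.5 to 38.3, 30.9 to 41.1 and 21.2 to 25.2 CPM in Atf4, Atf3 and control libraries, with 1 of the 3 tested called higher in the Atf4 line and 2 in the Atf3 line. Tmem212, Ccdc153 and Rarres2 of this list were below 1 CPM in every library, so nearly all of the sum was Foxj1. The 8 precursor markers summed to 3807 to 3919, 4098 to 4185 and 3614 to 3868 CPM, with 3 higher and 3 lower in each line against control. Microglia markers and mural cell and fibroblast markers each summed to no more than 1.36 CPM in any library. The part of these other cell markers in the change of Tubb3 was not tested.

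Tubb4a, a low-level isotype here, followed a different pattern. It was at 9.06, 6.63, 6.96, 5.81 and 4.88 CPM in the libraries of the Atf4 line, at 3.59, 4.35, 3.94, 4.95 and 4.59 CPM in those of the Atf3 line and at 6.62, 5.53, 5.83, 5.39 and 5.78 CPM in those of the control line. Every Atf3 library lay below every control library, while the Atf4 libraries reached both above and below the control range. Against control, Tubb4a fell with the Atf3 transgene (log2 fold change -0.44 ± 0.13 SE, edgeR adjusted p = 0.0052) and was higher in Atf4 than in Atf3 libraries (0.64 ± 0.13 SE, edgeR adjusted p = 6.4e-04), with an overlap between the highest Atf3 and the lowest Atf4 library. Against control the Atf4 line gave 0.20 ± 0.13 SE (edgeR adjusted p = 0.186), which was not called, but without Atf4 replicate 5 it was 0.27 and was called.

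Tuba1a, the main α-tubulin of developing neurons, differed little. It was at 940.3, 905, 855, 869 and 740.4 CPM in the libraries of the Atf4 line, at 968, 961, 847, 995 and 884 CPM in those of the Atf3 line and at 958, 949, 973, 1001 and 1048 CPM in those of the control line. It fell in the Atf4 line (log2 fold change -0.19 ± 0.06 SE, edgeR adjusted p = 0.0058), where every library lay below every control library, a change of 1.14-fold. With the Atf3 transgene the difference from control was -0.08 ± 0.06 SE (edgeR adjusted p = 0.192) and the libraries overlapped. Scaling the libraries by their plain totals, without TMM, gave -0.22 in the Atf3 line and a call, and it was also called with a filter at 1 CPM and without Atf4 replicate 5.

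Tubb2a and Tubb2b, a pair of adjacent genes with near-identical coding sequence, parted. Tubb2a was at 429, 455, 447, 456 and 474 CPM in the libraries of the Atf4 line, at 563, 514, 523, 546 and 491 CPM in those of the Atf3 line and at 363, 387, 378, 377 and 423 CPM in those of the control line, with no overlap between any 2 lines. It rose 1.17-fold with the Atf4 transgene (log2 fold change 0.23 ± 0.04 SE, edgeR adjusted p = 1.5e-04) and 1.37-fold with the Atf3 transgene (0.45 ± 0.04 SE, edgeR adjusted p = 2.4e-08), and was lower in Atf4 than in Atf3 libraries (-0.22 ± 0.04 SE, edgeR adjusted p = 4.8e-04). Tubb2b ranged from 529 to 605, 529 to 586 and 564 to 634 CPM in the Atf4, Atf3 and control lines, so all lines overlapped. Its log2 fold change was -0.03 ± 0.04 SE with the Atf4 and -0.08 ± 0.04 SE with the Atf3 transgene (edgeR adjusted p = 0.553 and 0.106), neither called. In the Atf3 line Tubb2b was called lower in 6 of 24 alternatives, which were plain totals (-0.22), a filter at 1 CPM, and the fits without control replicate 1 or 2 or Atf4 replicate 2 or 5.

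Of the 5 broadly expressed isotypes 5 were called higher in the Atf4 line and 4 in the Atf3 line, against control, beside 31.9% and 36.8% of all genes. With plain totals these counts were 5 and 3. Tuba1b, the most widely expressed α-tubulin, was at 709, 692, 719, 732 and 662 CPM in the libraries of the Atf4 line, at 718, 654, 633, 729 and 639 CPM in those of the Atf3 line and at 366, 345, 375, 402 and 398 CPM in those of the control line. No Atf4 or Atf3 library was below 633 CPM and no control library above 402 CPM. Tuba1b rose 1.86-fold with the Atf4 transgene (log2 fold change 0.90 ± 0.05 SE, edgeR adjusted p = 2.6e-11) and 1.79-fold with the Atf3 transgene (0.84 ± 0.05 SE, edgeR adjusted p = 2.1e-11). The Atf4 and Atf3 lines overlapped, and their difference of 0.06 ± 0.05 SE was not called (edgeR adjusted p = 0.335). Gm14150, a processed pseudogene on chromosome 2 that shares sequence with Tuba1b, had 72.5 ± 5.06, 60.9 ± 5.48 and 39.4 ± 1.23 CPM in the Atf4, Atf3 and control lines. Reads of the gene and of this copy could have been counted for either, and the part of that in the result was not tested.

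Tubb5, the main β-tubulin of dividing cells, has no stretch of read length in common with another gene. It was at 1334, 1319.6, 1352, 1389 and 1306 CPM in the libraries of the Atf4 line, at 1510.1, 1427, 1447, 1508 and 1453 CPM in those of the Atf3 line and at 846, 832, 872, 922 and 923 CPM in those of the control line. The 3 lines did not overlap, with the Atf3 line highest and the control line lowest. Tubb5 rose 1.52-fold with the Atf4 transgene (log2 fold change 0.61 ± 0.03 SE, edgeR adjusted p = 4.1e-11) and 1.67-fold with the Atf3 transgene (0.74 ± 0.03 SE, edgeR adjusted p = 1.1e-12). It was lower in the Atf4 than in the Atf3 line by edgeR (-0.13 ± 0.03 SE, adjusted p = 0.0042), a call that was lost with plain totals, where the difference was -0.03.

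Tuba1c and Tubb4b changed less. Tuba1c averaged 348 ± 15.1, 317 ± 19.3 and 259 ± 8.44 CPM in the Atf4, Atf3 and control lines, and every Atf4 and Atf3 library was above every control library. It rose in the Atf4 line (log2 fold change 0.42 ± 0.04 SE, edgeR adjusted p = 7.0e-08) and with the Atf3 transgene (0.29 ± 0.04 SE, edgeR adjusted p = 5.6e-06), and was higher in Atf4 than in Atf3 libraries (0.14 ± 0.04 SE, edgeR adjusted p = 0.0135). Tubb4b averaged 351 ± 22.9, 362 ± 11.8 and 309 ± 18.3 CPM and rose by 0.19 ± 0.05 SE with the Atf4 and 0.23 ± 0.05 SE with the Atf3 transgene (edgeR adjusted p = 0.0019 and 2.4e-04). The Atf4 libraries of Tubb4b overlapped the control libraries, while the Atf3 libraries did not. With plain totals its value in the Atf3 line was 0.09 and no longer called. Its processed copy Tubb4b-ps1 was at 9.97 ± 1.28, 10.9 ± 0.807 and 8.45 ± 0.782 CPM, far below the gene.

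Tubb6 was at the edge of what these libraries can resolve, with 40 to 86 counts each. It was at 0.71, 1.17, 0.955, 1.51 and 1.22 CPM in the libraries of the Atf4 line, at 0.943, 0.837, 1.02, 1.36 and 1.04 CPM in those of the Atf3 line and at 0.755, 0.716, 0.949, 0.697 and 0.801 CPM in those of the control line, and all lines overlapped. It was called higher in the Atf4 line (log2 fold change 0.50 ± 0.18 SE, edgeR adjusted p = 0.024). The call was lost in 7 of 23 alternatives: without control replicate 1, 2 or 4, without Atf4 replicate 2, 4 or 5, and without control replicates 4 and 5 together, with values from 0.36 to 0.48. With the Atf3 transgene Tubb6 gave 0.41 ± 0.19 SE (edgeR adjusted p = 0.0562). It was not called there, but was called when control replicate 3, Atf3 replicate 2 or Atf4 replicate 1 was left out and when only the lines compared were fitted.

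**Figure D2:**
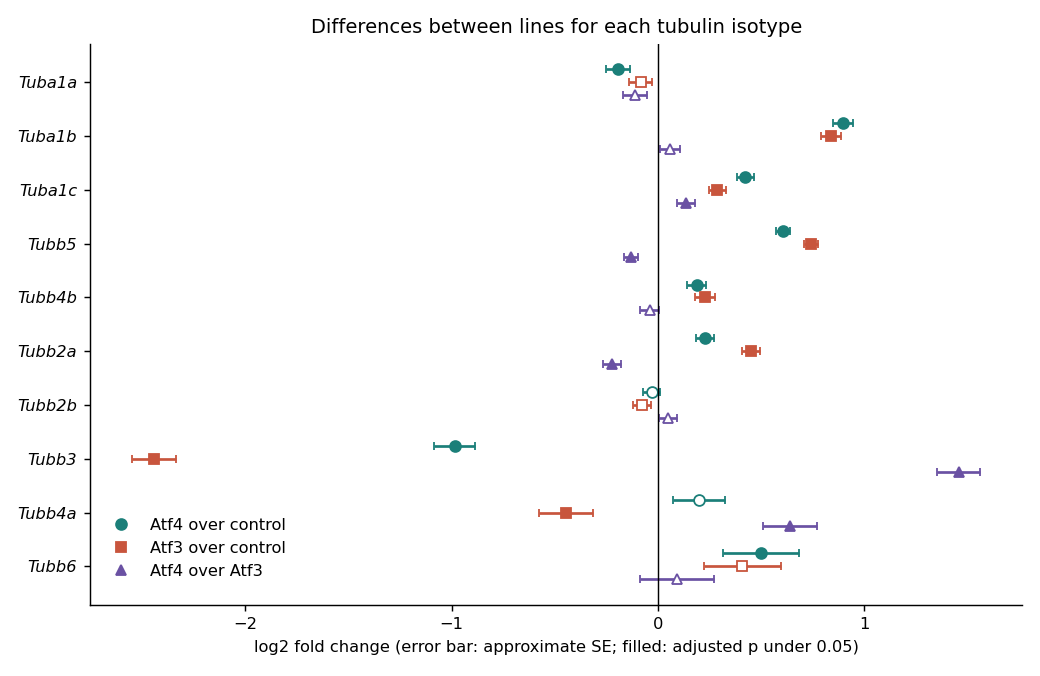
Log2 fold change (x axis) of each isotype (rows) for the Atf4 over the control line (circles), the Atf3 over the control line (squares) and the Atf4 over the Atf3 line (triangles), with approximate standard errors; filled symbols have an edgeR adjusted p under 0.05. Tubb3 lies furthest to the left against control, at -0.99 in the Atf4 and -2.44 in the Atf3 line, and Tuba1b and Tubb5 lie right of 0.6 in both.

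By class, 1 of the 5 neuron-enriched isotypes was called higher (Tubb2a) and 2 lower in each comparison with control. The lower ones were Tuba1a and Tubb3 in the Atf4 line and Tubb3 and Tubb4a in the Atf3 line. Of the 5 broadly expressed isotypes, all 5 were called higher in the Atf4 line and 4 in the Atf3 line, and none lower in either. The Tubb6 call in the Atf4 line was lost in 7 alternatives. Over all genes tested 31.9% were called higher and 29.7% lower in the Atf4 line, and 36.8% and 36.3% in the Atf3 line. The median log2 fold change of the neuron-enriched class was -0.03 in the Atf4 line and -0.08 in the Atf3 line, and that of the broadly expressed class was 0.50 and 0.41, beside a median over all genes of -0.00085 and -0.017. With 5 members a class median is the value of a single gene. For the broadly expressed class that gene was Tubb6 in both lines. Tubb6 had 40 to 86 counts per library and was not called in the Atf3 line. For the neuron-enriched class it was Tubb2b in the Atf4 line and Tuba1a in the Atf3 line. With plain totals the neuron-enriched class had 4 lower members in the Atf3 line and the broadly expressed class 3 higher ones. The classes follow general knowledge of these genes, and with Tubb2a moved to the broadly expressed class the neuron-enriched median in the Atf3 line was -0.26.

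Lines did not overlap for 6 isotypes in the Atf4 line against control, where 47.9% of all genes did not overlap, and for 7 in the Atf3 line against control, where 60.7% did not. Between the Atf4 and the Atf3 line 3 isotypes did not overlap (Tubb2a, Tubb3 and Tubb5), beside 25.8% of all genes.

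The isotypes together took 0.475 ± 0.0173, 0.459 ± 0.0203 and 0.403 ± 0.0161% of all counts in the Atf4, Atf3 and control lines. Summed per length, the broadly expressed isotypes gave 1099 ± 36.6, 1113 ± 47.8 and 727 ± 37.2 CPM per kb in the Atf4, Atf3 and control lines, with no Atf4 or Atf3 library below 1041 and no control library above 766 CPM per kb. The neuron-enriched isotypes gave 1034 ± 50.7, 1096 ± 58.4 and 1089 ± 47.2 CPM per kb, and their ranges overlapped. The sum of the α-tubulin members over that of the β-tubulin members was 0.891 ± 0.0323, 0.849 ± 0.0287 and 0.902 ± 0.0139. These sums and the shares that follow are descriptions without a test.

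Within the α-tubulin mRNA, Tuba1a made up 47.5 ± 1.85, 50.9 ± 0.979 and 63.5 ± 0.662% in the Atf4, Atf3 and control lines. Tuba1b made up 37.3 ± 1.26, 35.5 ± 0.684 and 23.3 ± 0.607%, and Tuba1c 15.2 ± 0.701, 13.7 ± 0.477 and 13.2 ± 0.288%. The ratio of Tuba1b to Tuba1a was 0.788 ± 0.0567, 0.697 ± 0.0256 and 0.368 ± 0.0132. The α-tubulin pool of both transgenic lines thus contained relatively more of the widely expressed Tuba1b, though reads shared between these genes enter both.

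Within the β-tubulin mRNA, Tubb5 made up 35.7 ± 0.709, 37.0 ± 0.607 and 27.7 ± 0.639% in the Atf4, Atf3 and control lines, and Tubb2b 22.1 ± 0.802, 20.2 ± 0.422 and 26.7 ± 0.421%. Tubb2a held 24.9 ± 1.33, 27.4 ± 0.688 and 25.1 ± 0.756% and Tubb4b 14.9 ± 0.726, 14.5 ± 0.288 and 15.5 ± 0.412%. Tubb3 was a small part throughout, with 2.03 ± 0.342, 0.701 ± 0.0754 and 4.77 ± 0.156%. For every 100 units of Tubb5 per length there were 5.71 ± 1.04, 1.90 ± 0.231 and 17.3 ± 0.537 of Tubb3. Tubb4a and Tubb6 stayed below 0.36% of the pool in every library.

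**Figure D3:**
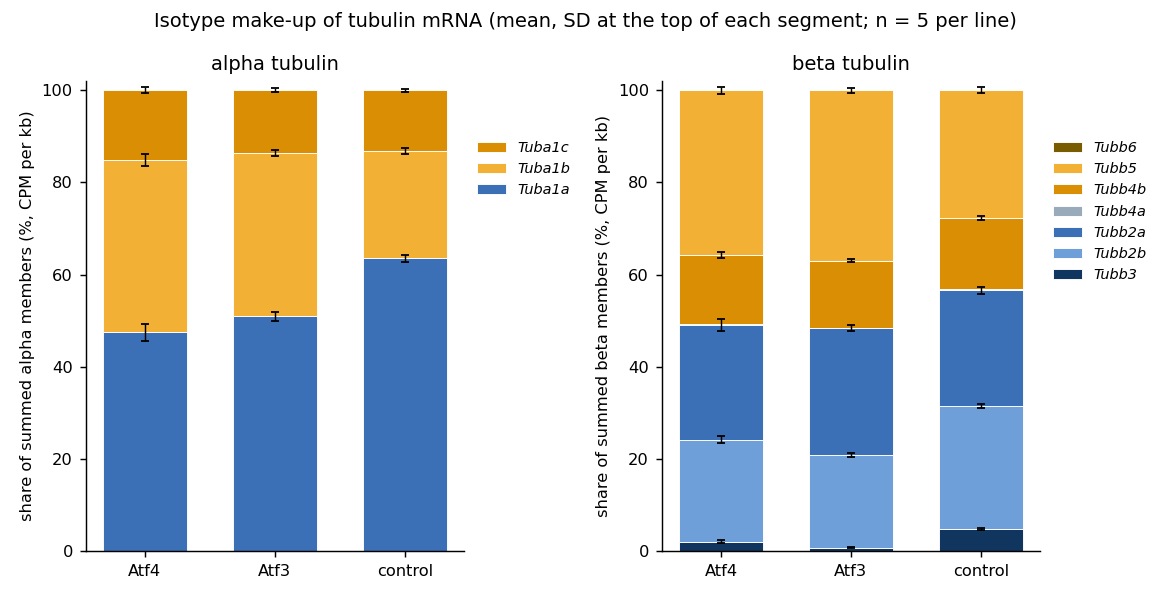
Share of each isotype in the summed α-tubulin members (left) and β-tubulin members (right), in percent of CPM per kb (y axis), for the Atf4, Atf3 and control lines (x axis); error bars are the SD of each isotype's share over 5 libraries, drawn at the top of its segment. Blue segments (neuron-enriched isotypes) fill less of both columns in the Atf4 and Atf3 lines than in the control line, with Tuba1a at 47.5, 50.9 and 63.5% of α-tubulin, and the segments of Tubb4a and Tubb6 are too thin to see.

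The promoters of 2 isotypes are shown because Atf3 and Atf4 belong to the basic leucine zipper family, whose members are known to bind the cAMP response element TGACGTCA, the AP-1 site TGACTCA and the combined C/EBP-ATF element TGATGNAAN. Windows from 250 bases before to 50 after the annotated start are from RefSeq, build GRCm38.p6, and were found for 8 of the 10 isotypes, Tubb2b and Tubb6 being the exceptions. Both strands were searched, and capitals mark the matches. The Tubb3 window is chr8:123411303-123411602 on the plus strand, and the Tubb2a window is chr13:34077959-34078258 on the minus strand.
Tubb3: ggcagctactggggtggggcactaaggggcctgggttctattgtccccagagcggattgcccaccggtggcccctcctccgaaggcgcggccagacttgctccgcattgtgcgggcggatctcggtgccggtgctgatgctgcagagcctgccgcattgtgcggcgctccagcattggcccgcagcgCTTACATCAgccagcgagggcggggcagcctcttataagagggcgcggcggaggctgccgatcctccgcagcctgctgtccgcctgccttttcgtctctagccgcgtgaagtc
Tubb2a: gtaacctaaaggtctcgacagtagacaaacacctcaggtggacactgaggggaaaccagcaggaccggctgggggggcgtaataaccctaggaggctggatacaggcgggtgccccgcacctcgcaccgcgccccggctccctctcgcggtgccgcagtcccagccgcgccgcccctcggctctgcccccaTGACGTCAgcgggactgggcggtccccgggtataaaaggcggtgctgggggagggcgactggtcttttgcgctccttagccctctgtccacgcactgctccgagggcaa

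Tubb3 held a match to TGATGNAAN on the opposite strand, starting 63 bases before its transcription start, an element found in 3.95% of all 32851 RefSeq windows of this length. Tubb2a held TGACGTCA, starting 59 bases before its start, which 1.79% of windows hold. None of the 8 windows held TGACTCA, found in 5.2% of windows. The shorter TGACG, which is part of TGACGTCA, was found in Tuba1c, Tubb2a, Tubb4a and Tubb4b and in 20.8% of all windows. Of the printed pair Tubb3 fell and Tubb2a rose in both lines against control. These matches describe letters in a window and not bound sites.

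The genes whose levels over the 15 libraries were most like those of Tubb3 were sought among 10663 genes as the smallest root mean square difference of log2(CPM + 0.5) after centring each gene on the control mean. They were Apoe, a lipid carrier of glia (0.141), Mc5r, a melanocortin receptor (0.186), Tmem255a, a transmembrane protein (0.197), Fxyd6, a regulator of the sodium pump (0.24), and Rab17, a small GTPase (0.271). Apoe was at 107 ± 21.8, 45.3 ± 5.58 and 220.3 ± 19.4 CPM in the Atf4, Atf3 and control lines and fell by 1.04 in the Atf4 line and 2.28 in the Atf3 line on the log2 scale. For Tubb6 the nearest were Galnt17, Cdyl, Rbpms, Dmrta2 and Zcchc2, all at 0.149 to 0.154, so no gene stood out from the others. Tubb6 itself lay below the level asked of the candidates, so it was compared only with better expressed genes. At its low counts the added 0.5 also shrinks its changes. The measure orders genes by likeness in these libraries and carries no test.

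Genes that make, fold, modify and bind tubulin were described in 11 lists with 126 genes, of which 118 were tested. Over the lists 55 genes were called higher and 29 lower in the Atf4 line against control, together 71.2% of those tested, beside 61.6% of all genes. In the Atf3 line against control 66 were higher and 41 lower, together 90.7%, beside 73.2% of all genes. By direction, 46.6% of the tested list genes were higher and 24.6% lower in the Atf4 line, beside 31.9% and 29.7% of all genes. In the Atf3 line 55.9% were higher and 34.7% lower, beside 36.8% and 36.3% of all genes. These shares over all genes stand beside each list count below. The lists have no test of their own.

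Among the other tubulins, 6 of 10 were expressed enough to test. Tubg1, the γ-tubulin that seeds microtubules, rose by 0.73 ± 0.04 SE in the Atf4 line and 0.80 ± 0.04 SE in the Atf3 line (log2 fold change), and Tube1, the centriolar ε-tubulin, by 1.27 ± 0.07 SE and 1.23 ± 0.07 SE. These were the only calls of the list in the Atf4 line, where plain totals added 1 lower call, Tubd1. In the Atf3 line 3 of the 6 rose and 3 fell, and Tubd1, the centriolar δ-tubulin, was among those that fell, at -0.33 ± 0.05 SE. Of the exon bases of Tube1 6.15% are shared with Ccn6 on the other strand.

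The chaperonin CCT, the barrel in which newly made actin and tubulin fold, gave the most uniform result. All 8 subunits rose in the Atf4 line and all 8 in the Atf3 line against control, and all 8 were lower in the Atf4 than in the Atf3 line, with list medians of 0.48, 0.74 and -0.26 on the log2 scale. Of all genes 31.9% and 36.8% were called higher against control, and 23.9% lower between the transgenic lines. Cct6a was at 324 ± 19.9, 423 ± 15.9 and 195 ± 8.48 CPM in the Atf4, Atf3 and control lines, Cct3 at 286 ± 8.65, 345 ± 10.7 and 188 ± 6.24 CPM, and Cct8 at 323 ± 12.9, 407 ± 14.9 and 229 ± 6.39 CPM. With plain totals 7 of 8 were called higher in the Atf4 line, and the other counts were the same. Of the exon bases of Cct6a 12.5% are shared with Psph on the other strand. Of the 13 prefoldin subunits and tubulin folding cofactors, which pass tubulin to and from CCT and join the dimer, 6 rose and 4 fell in the Atf4 line and 8 rose and 4 fell in the Atf3 line, where plain totals gave 4 higher and 4 lower. The prefoldin genes Pfdn4 (0.35 ± 0.08 SE and 0.85 ± 0.08 SE) and Pfdn6 (0.46 ± 0.06 SE and 0.68 ± 0.06 SE) rose most. Tbcel and Tbce, which act on the dimer itself, fell by 0.12 to 0.14 in both lines. Neither prefoldin nor the cofactors had a common direction, as the prefoldin gene Pfdn5 fell and the cofactor gene Tbcc rose in both lines.

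Of 4 genes of the tubulin mRNA feedback 2 fell in the Atf4 line, and 3 fell and 1 rose in the Atf3 line. Ttc5, the ribosome-bound recognition factor, fell by 0.28 in the Atf4 line and 0.31 in the Atf3 line, and Scaper, the adapter that brings in the CCR4-NOT deadenylase, by 0.24 and 0.27. Cnot1, the scaffold of CCR4-NOT, was at -0.12 ± 0.06 SE in the Atf4 line (edgeR adjusted p = 0.11) and fell by 0.25 in the Atf3 line. Cnot11 was called higher in the Atf3 line, at 0.08 ± 0.03 SE, but had the opposite sign with plain totals (-0.06, not called).

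Tubulin modifying enzymes, 21 of 23 tested, were split. In the Atf4 line 5 rose and 7 fell, and in the Atf3 line 6 rose and 11 fell. Ttl, which adds the terminal tyrosine back to α-tubulin, rose by 0.27 ± 0.04 SE in the Atf4 line and 0.42 ± 0.04 SE in the Atf3 line, and Vash1, which removes it, fell by 0.70 and 0.52. Ttll1, a polyglutamylase that acts on tails, fell by 0.40 and 0.55, and Ttll4, which starts glutamate chains, rose by 0.28 ± 0.08 SE and 0.39 ± 0.08 SE. Sirt2, a tubulin deacetylase that is abundant in oligodendrocytes, fell by 0.52 and 0.53, and Agbl5, which removes branch-point glutamate, fell by 0.42 and 0.60.

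Genes of microtubule nucleation and of the mitotic spindle were mostly higher, where 31.9% of all genes were called higher in the Atf4 line and 36.8% in the Atf3 line. Of 19 genes of the γ-tubulin ring complex and augmin, which branches new microtubules off old ones, 13 rose and 1 fell in the Atf4 line and 15 rose and 1 fell in the Atf3 line, with medians of 0.36 and 0.39. The augmin subunit Haus6 was at 34.1 ± 4.16, 37.3 ± 3.18 and 17.2 ± 0.721 CPM in the Atf4, Atf3 and control lines. The gene that fell in both was Mzt2. Of 11 spindle motors and assembly factors 10 rose and 1 fell in each line. Aurkb, the kinase of the chromosomal passenger complex, was at 76.1 ± 1.39, 70.0 ± 1.86 and 33.5 ± 4.55 CPM, the crosslinking motor gene Kifc1 at 91.4 ± 2.10, 82.7 ± 5.58 and 52.7 ± 5.39 CPM, and Numa1, the spindle pole organiser, fell by 0.37 in the Atf4 line and 0.59 in the Atf3 line. With plain totals the ring complex list had 13 higher and 3 lower in the Atf3 line. Whether the share of dividing cells had a part in the levels of Tuba1b, Tubb5 or these lists was not tested.

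**Figure D4:**
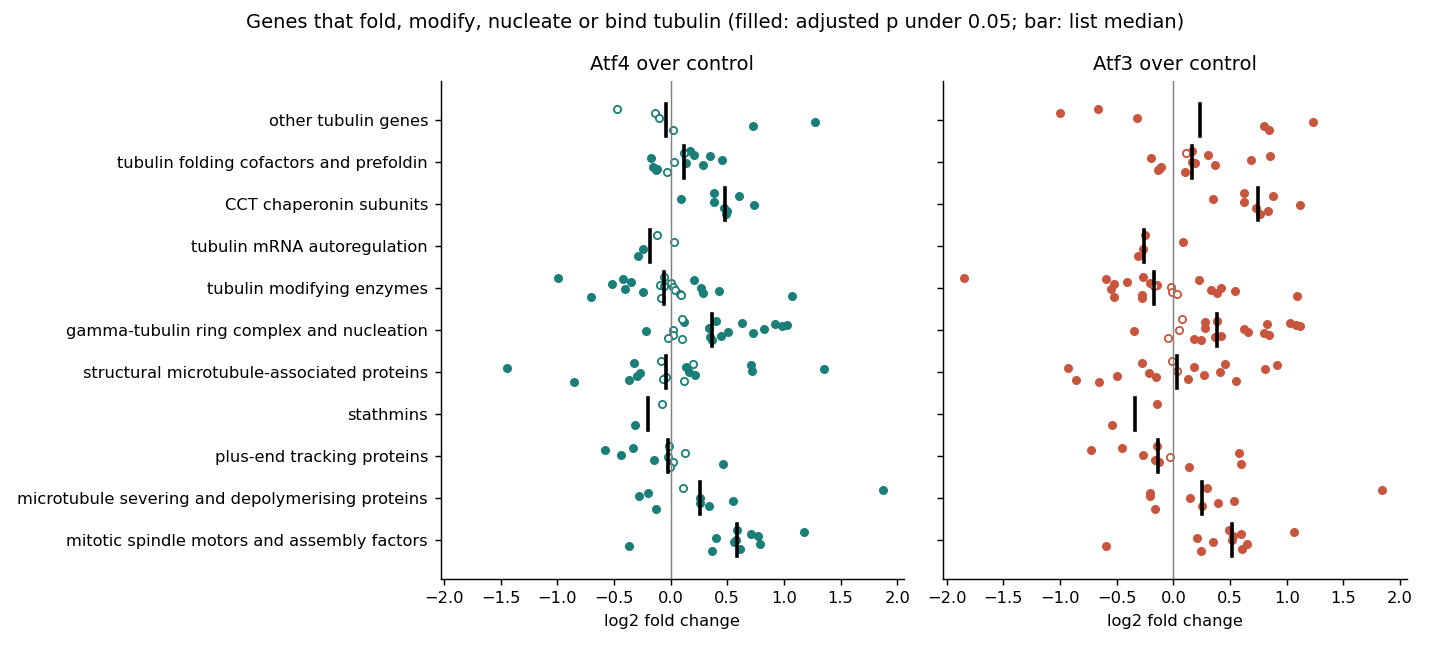
Log2 fold change (x axis, same scale in both panels) of each tested gene in 11 lists of tubulin-related genes (rows) for the Atf4 over the control line (left) and the Atf3 over the control line (right); filled points have an edgeR adjusted p under 0.05 and black bars are list medians. All 8 CCT subunits lie right of 0 in both panels, with medians of 0.48 and 0.74, and 10 of 11 spindle genes do.

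Microtubule-associated proteins showed no common direction. Of 17 structural ones 6 rose and 6 fell in the Atf4 line and 8 rose and 7 fell in the Atf3 line. Map1a, a neuronal microtubule stabiliser, was at 25.0 ± 6.85, 17.1 ± 2.03 and 9.78 ± 1.12 CPM in the Atf4, Atf3 and control lines, and Dclk1, a doublecortin-like kinase, at 154 ± 17.6, 177 ± 19.3 and 94.3 ± 3.43 CPM. Mapt, which encodes the axonal protein tau, was at 21.4 ± 1.75, 24.5 ± 2.10 and 38.6 ± 2.39 CPM, and Map6 at 34.1 ± 2.53, 29.7 ± 2.18 and 41.9 ± 1.26 CPM. Map1b, which is made early in axon growth, rose in the Atf4 line (0.72 ± 0.16 SE), while its value in the Atf3 line was 0.03 ± 0.16 SE (edgeR adjusted p = 0.869). The difference between those lines was itself called (0.69 ± 0.16 SE, edgeR adjusted p = 0.0018).

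Proteins that act at microtubule ends or cut the polymer moved as follows. Of 10 plus-end tracking proteins 1 rose and 4 fell in the Atf4 line and 3 rose and 6 fell in the Atf3 line, with the rescue factor genes Clasp2 falling by 0.58 and 0.72 and Clasp1 by 0.33 and 0.46. Of the 2 stathmins tested, which sequester free dimer, Stmn3 fell by 0.32 and 0.54, and Stmn1 was at -0.08 ± 0.05 SE in the Atf4 line (edgeR adjusted p = 0.165; called lower with plain totals) and fell by 0.15 in the Atf3 line. Of 9 severing and depolymerising proteins 5 rose and 3 fell in the Atf4 line and 6 rose and 3 fell in the Atf3 line, where plain totals gave 3 higher and 3 lower. Fignl1 rose most, at 46.6 ± 4.49, 45.7 ± 2.74 and 12.7 ± 1.39 CPM in the Atf4, Atf3 and control lines, and the severing genes Katna1, Katnal1 and Spast fell by 0.13 to 0.28 in both lines.

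The direct comparison of the Atf4 with the Atf3 line separated 5 isotypes. Tubb3, Tubb4a and Tuba1c were higher and Tubb2a and Tubb5 lower in the Atf4 line, with log2 fold changes of 1.46, 0.64, 0.14, -0.22 and -0.13. Only Tubb3 passed a change of 1, as 3.27% of all genes did. The count depended on scaling: plain totals gave 5 isotypes higher and 1 lower in place of 3 and 2, and moved the median of all genes from 0.007 to 0.11. In the tubulin-related lists 21 genes were higher (17.8% of those tested) and 33 lower (28.0%) in the Atf4 than in the Atf3 line. Together these were 45.8%, near the 43.6% of all genes called, of which 19.7% were higher and 23.9% lower. With plain totals the lists had 54 higher and 16 lower, so their balance between the transgenic lines is not settled by these counts.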

How the data were processed

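RNA sequencing was done on 15 libraries, 5 for each of 3 lines, with the NEBNext Ultra RNA kit and paired reads of 150 bases, per the labels' protocols. The authors deposited 1 table of raw, unnormalized read counts for each gene. Per the submitters' processing notes, STAR, edgeR and mm10 were used. Which program, strand setting and annotation release produced the counts was not given in the sources used here. Library totals were 53.7 to 69.6 M counts. At this depth counting error matters most for Tubb6, at 40 to 86 counts per library, and next for Tubb4a, at 194 to 587.

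Groups were read from the library titles. Symbols, positions and exon lengths came from GENCODE M21 (52135 of 55416 identifiers matched, and the others took up to 0.208% of any library). The fit was made with edgeR 4.0.16 under R 4.3.3: TMM scaling, filterByExpr, all 15 libraries in a single fit and the quasi-likelihood test for each pair of lines, with Benjamini-Hochberg adjustment over 18244 genes and a threshold of 0.05. The SE is the size of the log2 fold change divided by the square root of F and is approximate. Control libraries are shared by 2 of the comparisons. Scripts were tested on simulated counts.

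The isotypes and all gene lists were chosen with earlier results of these data known. Named genes are all isotypes, Atf3 and Atf4, up to 3 rising and 3 falling genes per list and comparison by size (mean log2 CPM 2 or more), and the 5 nearest genes by likeness; the text gives a subset. Marker genes were named to describe the cells. Alternatives were DESeq2 1.42.0, limma-voom 3.58.1, RLE size factors, plain totals, no filter, a filter at 1 CPM in 5 libraries, only the lines compared, the replicate block, and libraries left out. Replicate numbers shared across lines did not pair the libraries.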

Additional observations from a re-analysis of the deposited data

Results flagged for a closer look

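The difference between the Atf4 and the Atf3 line was itself called by the edgeR quasi-likelihood test for 5 isotypes, as log2 fold changes of the Atf4 over the Atf3 line. These were 1.46 for Tubb3, 0.64 for Tubb4a, 0.14 for Tuba1c, -0.22 for Tubb2a and -0.13 for Tubb5.

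Tubb2b was at 634 CPM in control replicate 5, the highest of the 5 control libraries, with a gap to the next that was 0.725 of the whole range. Of the 30 sets of 5 libraries examined (10 isotypes in 3 lines) this was the only such case. For any 1 set, chance gives such a gap about 1 time in 20, so a single case among 30 sets is not unusual.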

How the results depend on the processing

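Of 717 isotype values recomputed under 24 alternatives, 690 kept their side of the threshold, 18 gained a call and 9 lost one. No called isotype changed direction, while 2 isotypes that were not called in the Atf4 against the Atf3 line changed sign there. These were Tubb4b with plain library totals (0.06) and without Atf4 replicate 5 (0.0013), and Tubb6 without Atf4 replicate 4 (-0.03). All calls of Tubb3, Tubb2a and Tuba1c held in all alternatives. Plain library totals moved the median of all genes by most, to -0.04 (Atf4) and -0.16 (Atf3) against control and 0.11 between the transgenic lines. With them the Atf3 line had 4 isotypes called lower and class medians of -0.22 (neuron-enriched) and 0.27 (broadly expressed). The Atf4 against the Atf3 line had 5 isotypes higher and 1 lower, 54 related genes higher and 16 lower, and class medians of 0.15 and 0.16. Signs turned for Cnot11 (-0.057), Map7d1 (-0.00995), Mzt1 (-0.091), Slain2 (-0.0013) and Vbp1 (-0.038) in the Atf3 line against control, and for Tubgcp3 (0.079) between the transgenic lines. Only the scaling differs in that alternative. A filter at 1 CPM in 5 libraries, under which Tubb6 was not tested, gave 4 isotypes lower in the Atf3 line. With Tubb2a moved to the broadly expressed class, the neuron-enriched median was -0.26 in the Atf3 line against control and 0.34 between the transgenic lines. Raw counts in place of counts per length gave a difference in the Tubb3 share of β-tubulin of -2.24 percentage points (Atf4) and -3.25 (Atf3) against control, in place of -2.74 and -4.07, by construction. Leaving out 1 library gave 2 to 4 isotypes lower in the Atf3 line, the 4 without Atf4 replicate 5. It gave a broadly expressed median of 0.30 to 0.48 there, and of -0.033 to 0.087 between the transgenic lines. In the main fit these medians were the values of Tubb6 (0.41 ± 0.19 SE) and Tuba1b (0.06 ± 0.05 SE). The cause of these shifts was not tested. The replicate block gave 5691 higher and 5277 lower genes for the Atf4 transgene against control, 6630 and 6502 for the Atf3 transgene, and 3413 and 4176 between them, and no isotype changed its call. Same-numbered libraries correlated at -0.079 to 0.098 after removing line means, so the numbers are not taken as pairs. Depth limits only Tubb6 and, less, Tubb4a.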
